A study of Mus musculus with 53 samples.

Results

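The genes described here are 43 genes of DNA replication and mitosis, chosen by symbol from 49938 symbols that the P2 bulk tables and all 10 single-cell libraries share. Every one of the 43 was found in each table. By role they comprise the 6 MCM helicase subunits (Mcm2 to Mcm7), 3 genes of the sliding clamp and nucleotide supply (Pcna, Rrm2, Tyms), and 3 of cohesion and repair (Esco2, Neil3, Brca1). The mitotic members are 5 genes of CDK1 and its cyclins (Cdk1, Ccna2, Ccnb1, Ccnb2, Ccnf), 4 genes of mitotic kinases and an activator (Plk1, Aurka, Aurkb, Tpx2), and 4 genes of the spindle checkpoint and anaphase-promoting complex (Cdc20, Bub1, Bub1b, Ttk). The remaining members are 5 kinetochore genes (Ndc80, Nuf2, Knl1, Cenpe, Cenpf), 9 kinesins and spindle genes (Kif11, Kif4, Kif14, Kif20a, Kif20b, Kif23, Prc1, Aspm, Hmmr), 2 of cytokinesis (Anln, Ect2), and 2 of the mitotic chromosome (Top2a, Mki67). The study deleted Insm1, or Tead1 together with Tead2, in the developing mouse cerebellum. Mutants were labelled Atoh1Cre; Insm1fl/fl or Atoh1Cre;Tead1fl/fl; ;Tead2fl/fl, so recombination is driven by the Atoh1 promoter, which is active in the rhombic-lip lineage that forms granule cells, and cells outside that lineage keep the genes. The controls, Insm1fl/fl or Tead1fl/fl; ;Tead2fl/fl, carried the same floxed alleles without Cre, so an effect of Cre itself cannot be told apart from the deletions. Bulk RNA-seq at postnatal day 2 (P2) had 4 controls and 4 mutants for Insm1, and 3 controls and 4 mutants for Tead1/2, each 1 cerebellum of 1 pup. By sex-linked transcripts all 4 Insm1 controls and Insm1 mutants 1 and 2 were female, while Insm1 mutants 3 and 4 were male. Tead1/2 control 2 and mutant 4 were female and the other Tead1/2 libraries male. Sex was not a term in the tests, so its part in the P2 changes was not tested. At day 7 (P7), single cells were sequenced from 2 controls and 3 mutants per allele, again with 1 cerebellum per library. The numbers 1, 2 and 3 of the P7 libraries also mark the dissection, since number 1 held all lobules and the others lacked lobules IX and X.

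Granule cell progenitors divide in the outer layer of the postnatal cerebellum under Sonic hedgehog signalling and leave the cell cycle as they become granule neurons. Before S phase the MCM hexamer is loaded at replication origins as the core of the replicative helicase, and PCNA then clamps the polymerases to DNA. Cyclin B with CDK1 drives entry into mitosis, Polo and Aurora kinases build the spindle, kinetochores attach it to the chromosomes, and CDC20 with the anaphase-promoting complex ends the phase. Transcription of these genes is periodic: G1/S genes are known targets of E2F factors, and G2/M genes are repressed in resting cells by the DREAM complex through promoter elements called CHR (cell cycle genes homology region) and activated through CCAAT boxes bound by NF-Y.

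The promoters of the members carry these elements in a pattern that follows their roles, and 6 are printed below because they belong to members whose levels are described in detail. Windows of 300 bases, from 250 before to 50 after the annotated start, were taken from RefSeq (build GRCm38.p6), in which 37 of the 43 members had an entry. Both strands were searched for TTTGAA (the CHR core), CCAAT and TTTNNCGC (an E2F-type core, in which N is any base). Capitals mark the matches, and a match on the other strand stands as its reverse complement.
Top2a (DNA topoisomerase that untangles chromosomes; chr11:99024140-99024439, minus strand): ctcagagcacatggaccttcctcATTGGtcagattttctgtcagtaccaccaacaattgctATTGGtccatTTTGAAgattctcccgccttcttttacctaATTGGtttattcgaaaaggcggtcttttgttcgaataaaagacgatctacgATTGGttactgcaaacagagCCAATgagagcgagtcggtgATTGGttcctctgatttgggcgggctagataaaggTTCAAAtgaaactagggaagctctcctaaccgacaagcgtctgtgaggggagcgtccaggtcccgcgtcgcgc
Ccnb2 (cyclin B2; chr9:70421505-70421804, minus strand): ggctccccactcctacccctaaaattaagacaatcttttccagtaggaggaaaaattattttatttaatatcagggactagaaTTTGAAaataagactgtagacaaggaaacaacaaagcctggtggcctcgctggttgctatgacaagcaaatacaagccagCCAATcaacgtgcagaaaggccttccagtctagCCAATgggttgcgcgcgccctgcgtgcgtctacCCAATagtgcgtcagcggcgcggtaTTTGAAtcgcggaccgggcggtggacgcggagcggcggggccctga
Cdk1 (the mitotic kinase; chr10:69352863-69353162, minus strand): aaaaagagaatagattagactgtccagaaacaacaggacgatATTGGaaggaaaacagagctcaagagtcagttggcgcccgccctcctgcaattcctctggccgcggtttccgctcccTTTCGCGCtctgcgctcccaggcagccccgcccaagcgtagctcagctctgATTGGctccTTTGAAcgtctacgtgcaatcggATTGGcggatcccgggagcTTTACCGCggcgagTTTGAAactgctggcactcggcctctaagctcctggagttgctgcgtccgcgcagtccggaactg
Plk1 (Polo-like kinase; chr7:122159185-122159484, plus strand): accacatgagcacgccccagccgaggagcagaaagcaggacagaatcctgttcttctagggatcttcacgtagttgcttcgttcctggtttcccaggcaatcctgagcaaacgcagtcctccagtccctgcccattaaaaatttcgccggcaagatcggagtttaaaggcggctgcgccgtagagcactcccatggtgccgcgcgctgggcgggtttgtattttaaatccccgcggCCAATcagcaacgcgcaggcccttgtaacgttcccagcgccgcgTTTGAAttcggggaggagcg
Mcm5 (helicase subunit; chr8:75109259-75109558, plus strand): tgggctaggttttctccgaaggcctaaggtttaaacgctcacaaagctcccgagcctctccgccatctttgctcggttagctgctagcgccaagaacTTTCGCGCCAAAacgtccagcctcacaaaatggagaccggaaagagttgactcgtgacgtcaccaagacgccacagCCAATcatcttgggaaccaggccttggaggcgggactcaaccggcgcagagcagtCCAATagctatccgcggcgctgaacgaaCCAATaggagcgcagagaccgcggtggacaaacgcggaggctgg
Mcm6 (helicase subunit; chr1:128359656-128359955, minus strand): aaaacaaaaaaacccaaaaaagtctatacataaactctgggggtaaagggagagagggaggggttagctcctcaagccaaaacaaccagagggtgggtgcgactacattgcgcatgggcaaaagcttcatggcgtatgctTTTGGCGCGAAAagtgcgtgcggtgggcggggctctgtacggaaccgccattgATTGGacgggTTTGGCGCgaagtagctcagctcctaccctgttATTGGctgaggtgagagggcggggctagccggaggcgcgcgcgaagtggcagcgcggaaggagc
The Top2a window holds 2 TTTGAA and 6 CCAAT matches, and the Plk1 window 1 of each. Cdk1 holds 2 TTTGAA, 3 CCAAT and 2 TTTNNCGC matches, and was the 1 mitotic member with all 3 elements. TTTGAA occurred in 23 of the 27 mitotic members with an entry (85.2%) and in 1 of 8 replication members (12.5%), against 20.2% of all 27025 genes with a promoter in the table. TTTNNCGC showed the reverse: it occurred in 5 of the 8 replication members (62.5%), 4 of them MCM genes, and in 1 mitotic member, Cdk1, against 5.93% of all genes. CCAAT was common to both classes, with at least 1 match in 30 of 37 members (81.1%) against 41.1% of all genes, and at least 2 matches in 51.4% against 13.3%. In the Mcm5 and Mcm6 windows, 1 pair of TTTNNCGC matches overlaps on opposite strands, and in Mcm7 a CCAAT match overlaps a TTTNNCGC match. These matches describe letters and were not tested for binding. No bulk or single-cell value entered this search.

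The targeted genes were checked first. At P2, Insm1, a zinc-finger repressor of neural progenitors, had levels of 30.8, 31.4, 56.5 and 71.5 CPM (counts scaled to library size with TMM factors) in its controls and 10.6, 8.39, 16.1 and 15.1 in its mutants (log2 change -1.91, SE 0.30, edgeR adjusted p = 0.0194). Tead1, a DNA-binding partner of YAP and TAZ, stood at 54.2, 46.4 and 33.4 CPM in the Tead1/2 controls and 39.1, 38.1, 50.7 and 43.5 in the mutants, and its paralog Tead2 at 23.6, 25.7 and 21.5 against 19.2, 20.1, 17.6 and 26.2 (edgeR adjusted p = 0.746 and 0.314). With all 4 mutants counted, the levels of Tead1 and Tead2 thus do not separate the P2 Tead1/2 groups. Tead2 was below every control in mutants 1 to 3 and above them in mutant 4. Counts over a whole gene cannot show the loss of a floxed exon. At P7, over all cells, Insm1 had 58.97 and 57.2 CPM in its controls against 14.3, 5.75 and 7.67 in the mutants (log2 change -2.64, SE 0.36, edgeR adjusted p = 2.85e-04). Tead2 stood at 30.1 and 31.2 CPM against 9.04, 7.73 and 7.23 (log2 change -1.96, SE 0.09, edgeR adjusted p = 7.00e-08), whereas Tead1 was higher in the Tead1/2 mutants, at 629 and 618 CPM against 1161, 1332 and 1139 (log2 change 0.94, SE 0.07, edgeR adjusted p = 2.88e-06). In the summed skeletal muscle markers, 3 Tead1/2 mutants at P2 reached 249 to 329 CPM, but the library labelled Tead1/2 mutant 4 held 67.6, within the 66.3 to 73.5 CPM of its controls. The members and cell cycle genes called by edgeR in the P2 Tead1/2 comparison are therefore also given without it. Statements of overlap count all 4 mutants. The P2 libraries held 2.81e+07 to 6.45e+07 counts. Granule progenitor markers, the cells expected in this tissue, summed to 465 to 763 CPM over the P2 libraries. Per the labels the Insm1 and Tead1/2 bulk libraries are different batches, so the alleles and the batches cannot be told apart at P2.

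At P2, no member passed the test in either mutant (edgeR adjusted p under 0.05 over all genes). In the Insm1 comparison 0.689% of 19582 genes were called (0.209% lower), and 0 of 43 members, 10 of which had an unadjusted p below 0.05, as had 9% of all genes. By DESeq2, 1.59% of genes (0.659% lower) and 0 members were called, and 11 members and 8.99% of all genes were below 0.05 unadjusted. In the Tead1/2 comparison 0% of 20247 genes were called, and 22 members and 20% of all genes were under 0.05 unadjusted. The estimates lay on opposite sides: 41 of 43 were below 0 in Insm1 mutants, with a median log2 change of -0.12 against 0.01 over all genes tested, and 36 of 43 were above 0 in Tead1/2 mutants, with a median of 0.15 against -0.01. In whole cerebellum, fewer cells of a type and less RNA per cell cannot be told apart.

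**Figure D1:**
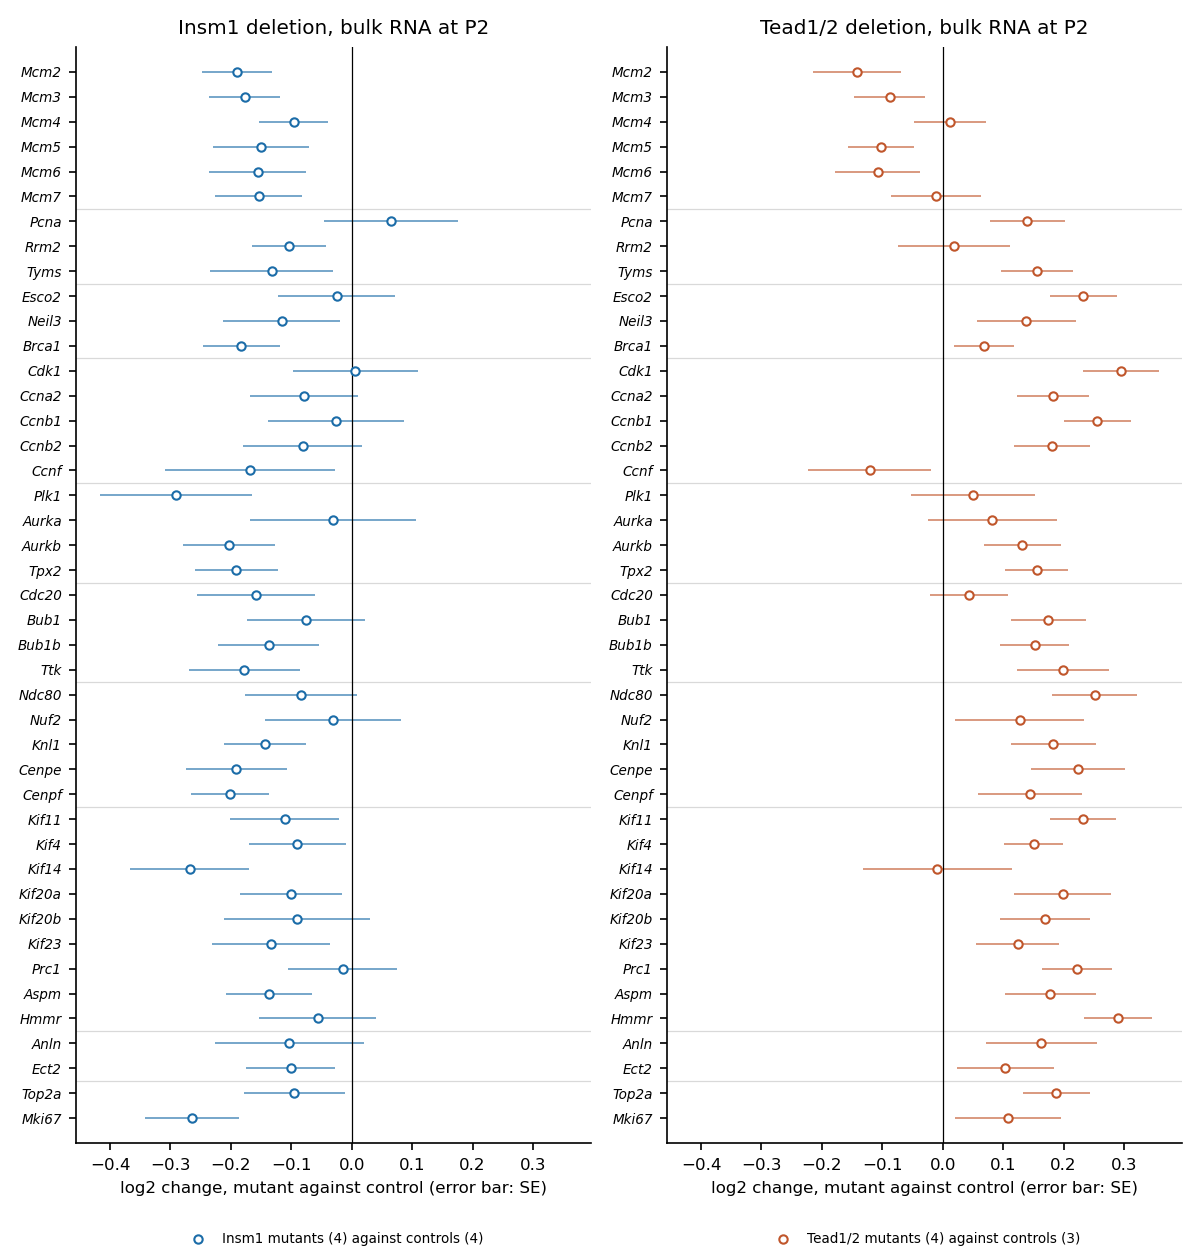
Log2 change (x axis, mutant against control, bars of 1 standard error) of each of the 43 members at P2, ordered by role on the y axis, for Insm1 and Tead1/2. Open points mark members that did not pass the test, which is all of them. Most Insm1 points lie left of 0 and most Tead1/2 points right of it, with Mcm2, Mcm3, Mcm5, Mcm6, Mcm7, Ccnf and Kif14 as the exceptions in Tead1/2.

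Among the replication members, the helicase subunits gave mostly negative estimates in both mutants. Mcm2 stood at 87.7, 87.7, 91.2 and 83.1 CPM in Insm1 controls and 75.9, 71.99, 79.05 and 77.1 in the mutants (log2 change -0.19, SE 0.06, edgeR adjusted p = 0.301). Mcm2 in the other allele stood at 85.2, 106 and 87.97 CPM in the Tead1/2 controls and 86.3, 82.5, 87.6 and 88.2 in the mutants (log2 change -0.14, SE 0.07, edgeR adjusted p = 0.304). The 4 Insm1 mutants were all below their controls, whereas the Tead1/2 libraries overlapped. Mcm5 stood at 89.95, 96.2, 107 and 86.2 CPM in Insm1 controls and 91.3, 78.4, 83.5 and 85.6 in the mutants, and at 100.4, 112 and 97.7 CPM in the Tead1/2 controls and 97.4, 96.5, 96.8 and 103 in the mutants, with overlap in both alleles. For Tead1/2 that overlap came from the library labelled mutant 4 alone. Mcm6, among the 3 lowest Tead1/2 estimates, stood at 159.9, 145 and 154 CPM in the Tead1/2 controls and 136, 134, 153 and 158 in the mutants (log2 change -0.11, SE 0.07, edgeR adjusted p = 0.421). All 6 MCM estimates were negative in Insm1 mutants (median -0.15) and 5 of 6 in Tead1/2 mutants (median -0.10).

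Of the clamp and nucleotide genes, Tyms alone separated mutants from controls, in Tead1/2. Pcna stood at 142, 172, 169.7 and 139.7 CPM in Insm1 controls and 195, 145, 159 and 148 in the mutants, the highest Insm1 estimate of all members (log2 change 0.07, SE 0.11, edgeR adjusted p = 0.883). Pcna in the other allele stood at 178, 187 and 174 CPM in the Tead1/2 controls and 209.8, 205, 185 and 211 in the mutants (log2 change 0.14, SE 0.06, edgeR adjusted p = 0.246). Rrm2, a subunit of ribonucleotide reductase, stood at 80.9, 79.7, 81.2 and 72.2 CPM in Insm1 controls and 73.4, 68.7, 73.2 and 74.5 in the mutants, and at 75.9, 101 and 78.1 CPM in the Tead1/2 controls and 86.9, 82.6, 92.6 and 90.5 in the mutants. Both genes overlapped between mutants and controls in each allele. Tyms, thymidylate synthase, stood at 35.7, 38.4, 39.8 and 31.7 CPM in Insm1 controls and 39.1, 30.5, 32.6 and 29.5 in the mutants, and at 34.98, 37.1 and 31.7 CPM in the Tead1/2 controls and 40.6, 39.9, 37.7 and 39.3 in the mutants, where the 4 mutants were all above the 3 controls (log2 change 0.16, SE 0.06, edgeR adjusted p = 0.19). Brca1, which acts in repair of replication forks, stood at 50.5, 51.5, 55.2 and 52.1 CPM in Insm1 controls and 46.6, 43.5, 49.6 and 43.3 in the mutants, with all mutants lower (log2 change -0.18, SE 0.06, edgeR adjusted p = 0.398). Brca1 in the other allele overlapped, at 54.8, 53.7 and 49.9 CPM in the Tead1/2 controls and 54.3, 54.8, 58.6 and 58.8 in the mutants.

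Cdk1, Hmmr and Ccnb1 had the 3 highest Tead1/2 estimates of all members. Cdk1, the kinase that drives mitosis, stood at 60.6, 67.9 and 58.8 CPM in the Tead1/2 controls and 82.8, 77.4, 78.7 and 74.1 in the mutants, and at 54.2, 60.3, 66.9 and 52.6 CPM in Insm1 controls and 68.1, 50.6, 58.3 and 55.9 in the mutants. Ccnb1, cyclin B1, stood at 92.6, 95.9 and 85.3 CPM in the Tead1/2 controls and 116, 107, 111 and 112 in the mutants, and at 76.6, 86.7, 95.4 and 78.8 CPM in Insm1 controls and 97.04, 67.1, 85.5 and 78.9 in the mutants. For both genes every Tead1/2 mutant, the library labelled mutant 4 included, was above every control, and the Insm1 libraries overlapped. Hmmr, a spindle-associated protein, stood at 31.2, 30.3 and 29.8 CPM in the Tead1/2 controls and 38.1, 35.97, 39.8 and 38.4 in the mutants, again without overlap. The log2 changes were 0.29 for Cdk1 (SE 0.06, edgeR adjusted p = 0.0898), 0.29 for Hmmr (SE 0.06, adjusted p = 0.0898) and 0.26 for Ccnb1 (SE 0.06, adjusted p = 0.0904). Without the library labelled mutant 4, 3.19% of 20234 genes were called (1.98% higher, 1.22% lower) and Cdk1 (log2 change 0.32, SE 0.07, edgeR adjusted p = 0.0388) and Hmmr (log2 change 0.29, SE 0.06, edgeR adjusted p = 0.0436) passed. With all libraries DESeq2 called 4.74% of genes (2.89% higher) and 7 members, all higher: Ccnb1, Cdk1, Prc1, Kif11, Hmmr, Top2a and Esco2. Ccnf, a cyclin that acts in ubiquitin ligation, had one of the 3 lowest Tead1/2 estimates at 31.9, 39.3 and 37 CPM in the Tead1/2 controls and 27.9, 34.5, 37.99 and 35.6 in the mutants (log2 change -0.12, SE 0.10, edgeR adjusted p = 0.538).

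The mitotic kinases had the lowest median of any role in Insm1 mutants (-0.20). Plk1 stood at 29.5, 24.2, 29.4 and 29.4 CPM in Insm1 controls and 19.4, 19.2, 25.3 and 27.5 in the mutants, the lowest Insm1 estimate of all members (log2 change -0.29, SE 0.13, edgeR adjusted p = 0.536). Plk1 in the Tead1/2 libraries stood at 18.8, 24.2 and 20.3 CPM in the Tead1/2 controls and 20.3, 20.6, 25.5 and 23.1 in the mutants. Plk1 overlapped in both alleles, with Insm1 mutants 3 and 4 above Insm1 control 2. Aurkb, the kinase of the chromosomal passenger complex, stood at 31.04, 31.7, 35.8 and 32.7 CPM in Insm1 controls and 29.5, 25.04, 29.9 and 28.7 in the mutants, and the Insm1 mutants were all below the controls (log2 change -0.20, SE 0.08, edgeR adjusted p = 0.442). Aurkb in the Tead1/2 libraries overlapped at 30.2, 34.3 and 29.6 CPM in the Tead1/2 controls and 33.03, 35.3, 37.5 and 34.8 in the mutants. Cdc20, the activator of the anaphase-promoting complex, stood at 46.8, 45.9, 58.3 and 46.9 CPM in Insm1 controls and 46.3, 37.9, 44.4 and 47.3 in the mutants, and at 51.3, 56.97 and 50.5 CPM in the Tead1/2 controls and 54.4, 52.4, 60.5 and 55.9 in the mutants, with overlap in each. Kif14, a kinesin of the central spindle, was among the 3 lowest Insm1 estimates at 24.4, 21.8, 26.3 and 26.3 CPM in Insm1 controls and 17.5, 19.2, 21.8 and 22.9 in the mutants (log2 change -0.27, SE 0.10, edgeR adjusted p = 0.436). Its highest mutant exceeded its lowest control.

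The kinetochore and most spindle members had positive estimates in Tead1/2 mutants. Ndc80, the microtubule-binding subunit of the outer kinetochore, stood at 22.6, 23 and 23.7 CPM in the Tead1/2 controls and 27.9, 25.6, 29.01 and 30.02 in the mutants, without overlap (log2 change 0.25, SE 0.07, edgeR adjusted p = 0.117). Ndc80 in the Insm1 libraries overlapped at 21.3, 22.6, 25.8 and 23.03 CPM in Insm1 controls and 23.8, 18.4, 22.4 and 22.2 in the mutants. Kif11, the kinesin that separates spindle poles, stood at 118, 111 and 106 CPM in the Tead1/2 controls and 133, 128, 139.6 and 137 in the mutants, without overlap (log2 change 0.23, SE 0.05, edgeR adjusted p = 0.0953), and at 86.8, 94.3, 108 and 96.2 CPM in Insm1 controls and 98.5, 78.1, 92.6 and 84.4 in the mutants. All 5 kinetochore estimates were positive in Tead1/2 mutants (median 0.18) and negative in Insm1 mutants (median -0.14). Prc1, which bundles the midzone, had one of the 3 highest Insm1 estimates (-0.01) at 85.9, 92.8, 103 and 88.02 CPM in Insm1 controls and 103, 80.03, 94.1 and 85.6 in the mutants. Anln, the cytokinesis scaffold anillin, overlapped in both alleles, at 34.7, 33.7, 43.7 and 42.05 CPM in Insm1 controls and 32.99, 29.4, 41.9 and 38.2 in the mutants, and at 34.2, 35.6 and 34.98 CPM in the Tead1/2 controls and 34.8, 39.1, 48.1 and 38.2 in the mutants.

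The mitotic chromosome genes Top2a and Mki67 differed in which allele separated. Top2a stood at 334, 364, 371 and 339.7 CPM in Insm1 controls and 370.4, 300.1, 338 and 299 in the mutants, and at 389.6, 381 and 345 CPM in the Tead1/2 controls and 437, 415, 445 and 434 in the mutants. Mki67, the Ki-67 chromosome coat protein, stood at 542, 499.6, 498 and 566 CPM in Insm1 controls and 422, 481, 435 and 402 in the mutants, and at 506, 492 and 394 CPM in the Tead1/2 controls and 475, 479.9, 577 and 511 in the mutants. Every Tead1/2 mutant was above every control for Top2a (log2 change 0.19, SE 0.06, edgeR adjusted p = 0.129), and every Insm1 mutant was below every control for Mki67 (log2 change -0.26, SE 0.08, edgeR adjusted p = 0.28). In all, 6 members had all Insm1 mutants below all controls and 0 above, where 3.55% and 2.77% of all genes tested did. For Tead1/2, with the library labelled mutant 4 counted, 18 had all mutants above all controls and 0 below, where 13.3% and 4.07% of all genes did. The summed level of the 43 members was 3399, 3493, 3719 and 3486 CPM in Insm1 controls and 3376, 2985, 3289 and 3089 in mutants. It was 3583, 3679.9 and 3289.6 CPM in Tead1/2 controls and 3822, 3697, 4124 and 3962 in mutants. The sums ran lower in Insm1 mutants and higher in Tead1/2 mutants. Beside the Insm1 sums, the 12 granule progenitor markers summed to 652 to 763 CPM in controls and 465 to 627 in mutants, and the astroglial markers to 2583 to 2947 and 2890.1 to 3528. Beside the Tead1/2 sums, the granule progenitor markers summed to 543 to 627 CPM in controls and 499 to 608 in mutants. The Purkinje markers summed there to 1403 to 1492 CPM in controls and 1555 to 1755 in mutants. Astroglial sums are given for Insm1 alone and Purkinje sums for Tead1/2 alone, so they do not compare the alleles. The part of these cell types in the member values was not tested.

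A test of the difference itself, the Insm1 effect minus the Tead1/2 effect over all 15 libraries, called 0% of 20837 genes, and 0 of 43 members. All 43 estimates were negative, the median was -0.27 against -0.0054 over all genes, and 23 members were under 0.05 unadjusted, as were 6.89% of all genes. DESeq2 called 17 genes (0.0816%, with 0.0384% higher and 0.0432% lower) and 0 members. The lowest estimates were Cenpe, a kinetochore motor, at -0.42 (SE 0.12), Ttk, the checkpoint kinase MPS1, at -0.38 (SE 0.13), and Mki67 at -0.38 (SE 0.13). The highest were Mcm5 at -0.05, Ccnf at -0.05 and Mcm6 at -0.05. By role the median difference was -0.34 for the kinetochore and -0.35 for the kinases but -0.08 for the MCM genes.

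Most other cell cycle genes at P2 lay on the same sides of 0 as the members. Of 84 other mitosis genes, 71 estimates were below 0 in Insm1 mutants and 73 above 0 in Tead1/2 mutants, with 0 called in each. Of 49 other replication genes the counts were 34 below and 36 above, with 0 called. Among E2F, DREAM and MYBL2-FOXM1 regulators (19 genes), G1 cyclins with their kinases (13) and S-phase repair genes (23), 0 were called in either mutant. Cdkn1c, the CDK inhibitor p57, was the 1 gene of these lists that passed: it rose in Insm1 mutants (log2 change 0.79, SE 0.10, edgeR adjusted p = 0.00733). Without the library labelled Tead1/2 mutant 4, Cdkn1c also passed in Tead1/2 mutants (log2 change 0.99, SE 0.06, edgeR adjusted p = 2.36e-05), as did Ccnd1, the G1 cyclin D1 (log2 change 0.52, SE 0.07, edgeR adjusted p = 0.00516), and Cdk6, its kinase partner, which fell (log2 change -0.43, SE 0.09, edgeR adjusted p = 0.0406).

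At P7 the members were lower in both mutants when the unique molecules (UMIs) of all kept cells of a library were summed. In Insm1 mutants 42 of 43 fell, where 34.3% of 24356 genes were called and 15.6% were called lower. The median change was -0.59 against 0.04 over all genes. In Tead1/2 mutants 43 of 43 fell, where 48.6% of genes were called and 22.8% lower, with a median of -0.92 against 0.06. Every mutant library was below both of its controls for all 43 members in each allele, where 29.2% (Insm1) and 29.5% (Tead1/2) of all genes were all below and 29.9% and 36.7% all above. This held within each dissection, since mutant 1 was below control 1 and mutants 2 and 3 below control 2. With each library left out in turn, 43 of 43 passed in every Tead1/2 fit and 37 of the 42 in every Insm1 fit. Cdk1 did not pass without Insm1 control 1, mutant 2 or mutant 3, Mcm3, Mcm7 and Plk1 did not pass without control 1, and Cdc20 did not pass without control 2. The P2 and P7 values come from different assays, so the change between ages was not tested.

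**Figure D2:**
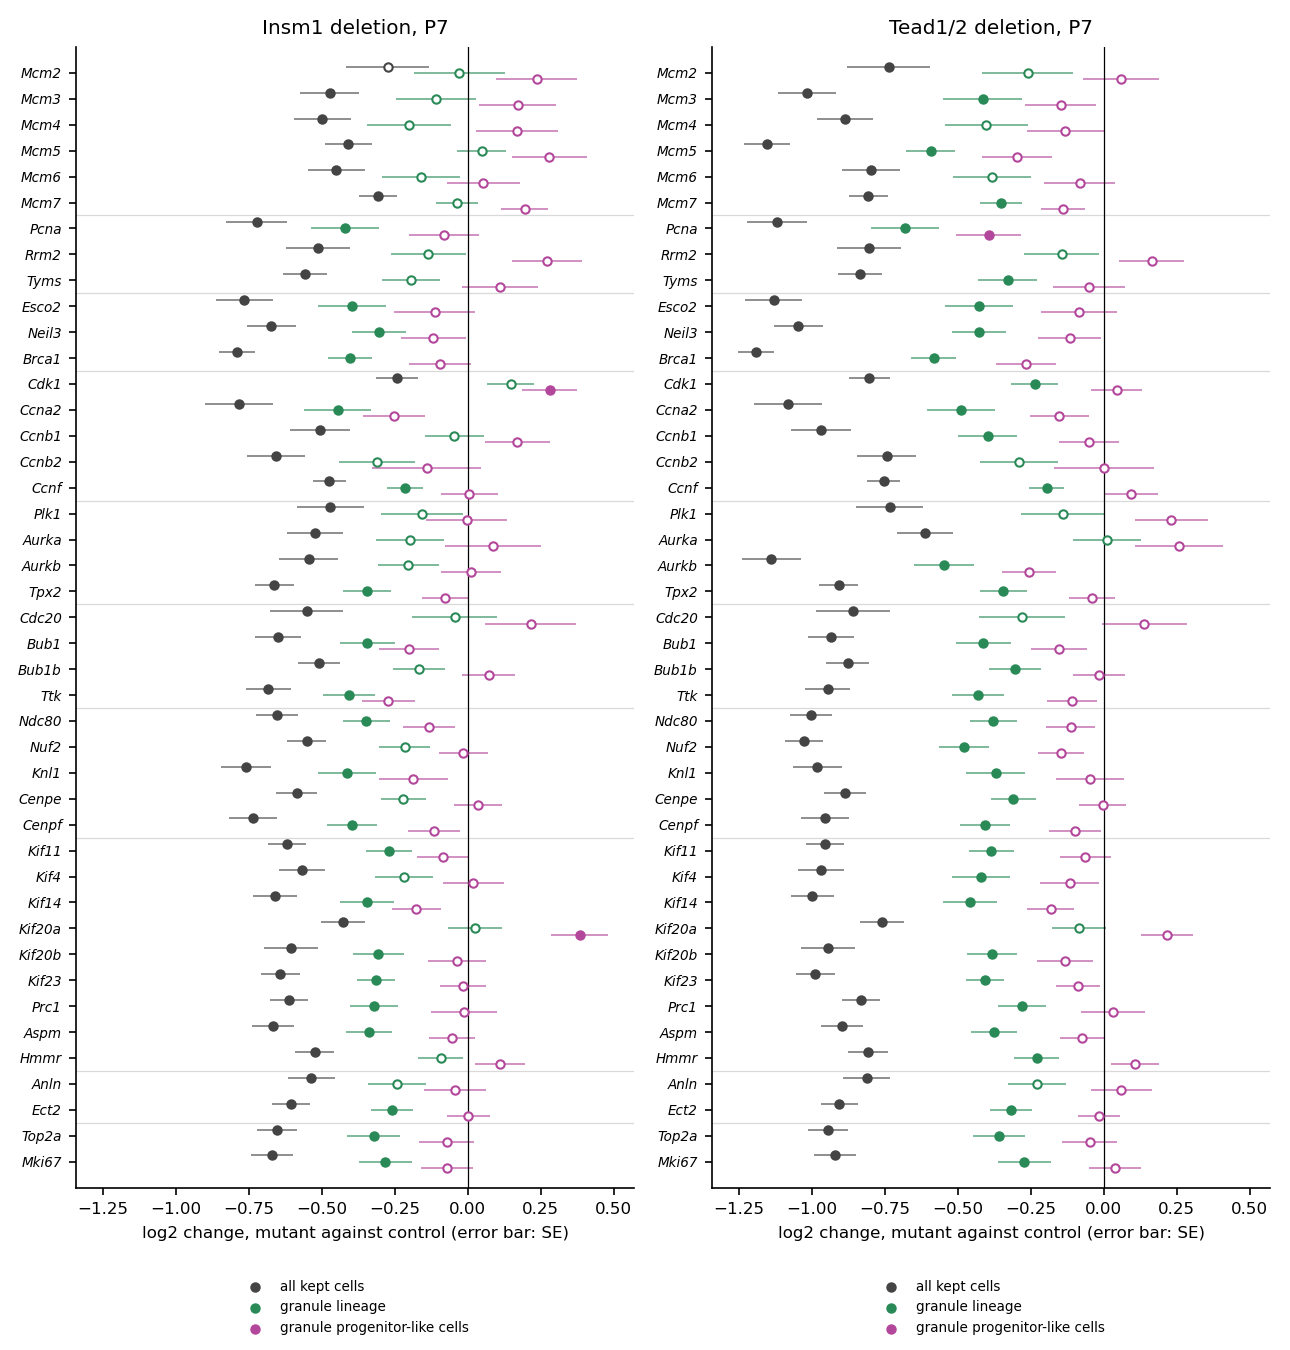
Log2 change (x axis, mutant against control, bars of 1 standard error) of the 43 members at P7, by role on the y axis, in all kept cells, in granule-lineage cells and in granule progenitor-like cells, in 1 color each. Filled points passed the test and open points did not. All points for all cells lie left of 0, the granule-lineage points lie closer to 0, with Cdk1, Mcm5 and Kif20a right of it in Insm1 mutants, and the progenitor-like points lie around 0.

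Among replication and repair members, Brca1 had the lowest estimate in both alleles. Brca1 stood at 91.9 and 89.04 CPM in Insm1 controls against 53.1, 51.4 and 50.7 in the mutants, and at 112 and 102 against 50.4, 44.6 and 47.3 for Tead1/2, which are log2 changes of -0.79 (SE 0.06, edgeR adjusted p = 7.11e-06) and -1.19 (SE 0.06, adjusted p = 2.04e-07). Esco2, the cohesin acetyltransferase, stood at 52.7 and 60.2 CPM in Insm1 controls against 36.7, 31.6 and 30.4 in the mutants, and at 60.3 and 58.4 against 28.9, 24.8 and 28.8 for Tead1/2. Mcm2 was the 1 member that did not pass in Insm1 mutants, at 31.8 and 29.4 CPM in Insm1 controls against 24.5, 26.8 and 23.9 in the mutants, and at 38.4 and 38.9 against 17.7, 25.6 and 27.3 for Tead1/2. Its changes were -0.28 (SE 0.14, edgeR adjusted p = 0.168) and -0.74 (SE 0.14, adjusted p = 0.00163). Mcm5 stood at 43.9 and 37.9 CPM in Insm1 controls against 29.7, 32.2 and 29.6 in the mutants, and at 61.2 and 65.8 against 29.01, 27.2 and 30.6 for Tead1/2, among the 3 lowest estimates in the Tead1/2 allele alone (-0.41 and -1.16). Mcm7 stood at 65 and 59.4 CPM in Insm1 controls against 49.3, 50.7 and 49.3 in the mutants, and at 74.1 and 80.6 against 43.2, 47.7 and 43.6 for Tead1/2 (-0.31 and -0.81). Pcna stood at 39.8 and 45.9 CPM in Insm1 controls against 26.5, 26.2 and 24.4 in the mutants, and at 48.4 and 44.5 against 18.9, 21.2 and 24.9 for Tead1/2 (-0.72 and -1.12). The clamp thus fell in every mutant library. Rrm2 stood at 36.5 and 36.5 CPM in Insm1 controls against 24.6, 27.6 and 23.7 in the mutants, and at 41.3 and 41.9 against 20.1, 24.5 and 27.8 for Tead1/2. Tyms stood at 37.9 and 38.2 CPM in Insm1 controls against 26.1, 26.3 and 24.3 in the mutants, and at 41.1 and 36.8 against 23.6, 20.4 and 22.5 for Tead1/2.

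Among mitotic members, Cdk1 had the smallest fall in Insm1 mutants. Cdk1 stood at 52.01 and 50.4 CPM in Insm1 controls against 44.3, 42.9 and 41.4 in the mutants, and at 66.1 and 66.8 against 41.5, 35.2 and 39.1 for Tead1/2, log2 changes of -0.24 (SE 0.07, edgeR adjusted p = 0.0234) and -0.80 (SE 0.07, adjusted p = 7.52e-06). Ccna2, cyclin A2, was among the 3 lowest Insm1 estimates (-0.78, SE 0.12) at 56.6 and 62.95 CPM in Insm1 controls against 34.7, 35.2 and 33.3 in the mutants, and at 57.3 and 53.9 against 22.2, 25.8 and 31.9 for Tead1/2. Ccnb1 stood at 33.4 and 29.9 CPM in Insm1 controls against 24.2, 20.5 and 21.5 in the mutants, and at 36.6 and 37.3 against 19.3, 16.8 and 21.4 for Tead1/2. The cyclins thus all fell in both mutants, with different sizes. Plk1 stood at 19.3 and 19.3 CPM in Insm1 controls against 14.1, 13.9 and 13.3 in the mutants, and at 19.7 and 18.5 against 9.44, 11.9 and 13.6 for Tead1/2. Aurkb stood at 27.1 and 27.7 CPM in Insm1 controls against 19.6, 18.2 and 18.02 in the mutants, and at 33.8 and 34.03 against 15.2, 13.5 and 18.2 for Tead1/2, one of the 3 lowest Tead1/2 estimates (-1.14). Aurka, the kinase of the spindle poles, had the smallest Tead1/2 fall (-0.61) at 21.6 and 20.4 CPM in Insm1 controls against 15.6, 13.6 and 14.2 in the mutants, and at 20.8 and 19.7 against 12.4, 12.6 and 15.3 for Tead1/2. The 3 kinases fell in each allele.

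Cdc20 stood at 17.8 and 20.4 CPM in Insm1 controls against 12.5, 13.5 and 12.8 in the mutants, and at 16.97 and 17.4 against 8.02, 9.18 and 11.6 for Tead1/2 (-0.55 and -0.86). Ndc80 stood at 53.96 and 53.2 CPM in Insm1 controls against 35.3, 34.3 and 31.5 in the mutants, and at 62.7 and 58.6 against 32.8, 28.6 and 30.6 for Tead1/2 (-0.65 and -1.003). Kif11 stood at 153 and 161 CPM in Insm1 controls against 107, 99.1 and 97.1 in the mutants, and at 226 and 206 against 116, 106 and 117 for Tead1/2 (-0.62 and -0.96). For these 3 genes the mutants of each allele lay below both controls. Anln stood at 95.4 and 93.8 CPM in Insm1 controls against 68.4, 59.6 and 65.7 in the mutants, and at 102 and 95.4 against 62.03, 52.4 and 56.96 for Tead1/2 (-0.54 and -0.81). Top2a stood at 420.1 and 439 CPM in Insm1 controls against 286, 269.6 and 255 in the mutants, and at 447 and 436 against 226, 219 and 254 for Tead1/2 (-0.65 and -0.95). Mki67 stood at 794 and 851 CPM in Insm1 controls against 517, 531 and 486 in the mutants, and at 882 and 834 against 458, 423 and 497 for Tead1/2 (-0.67 and -0.92). The summed members stood lower in mutants, going from 4655 and 4810.2 CPM in Insm1 controls to 3170.4, 3016 and 2913 in mutants, and from 5099 and 4844 to 2646, 2466 and 2814 for Tead1/2. Beside this, the share of granule progenitor-like cells was 32.3% and 28.2% in controls and 6.53% to 7.41% in mutants for Insm1, and 33.0% and 32.8% against 9.65% to 11.5% for Tead1/2. Muscle-like cells made up 16.2% to 19.0% of cells in Insm1 mutants and 25.6% to 36.3% in Tead1/2 mutants. In controls they made up 0.252% and 0.442% for Insm1, and 0.0963% and 0.113% for Tead1/2. The part of these shares in the summed levels was not tested.

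**Figure D3:**
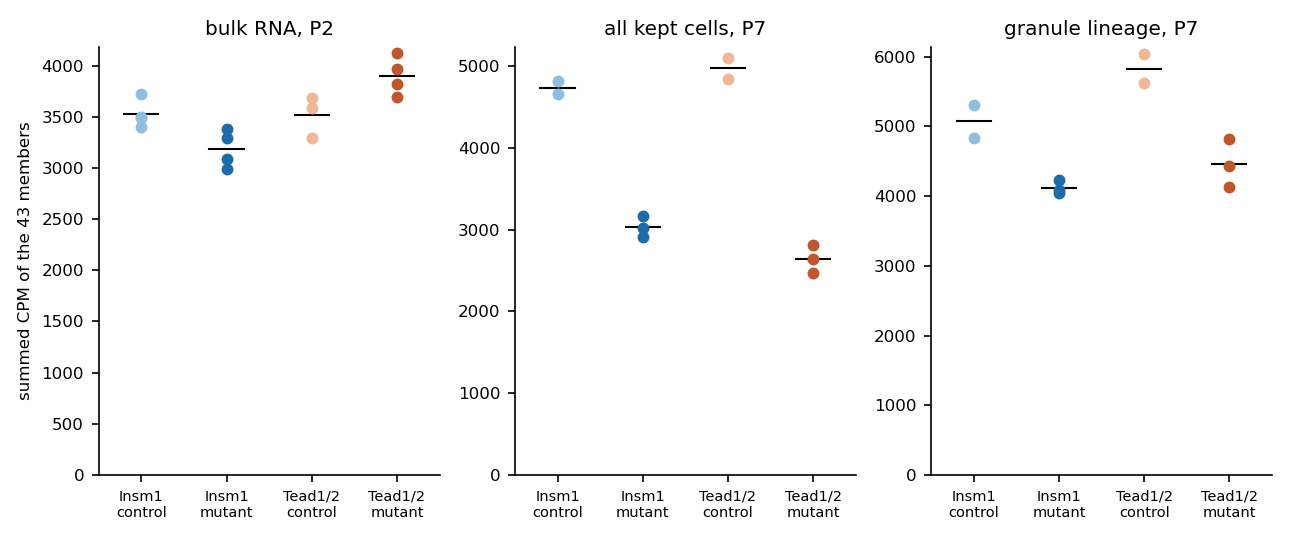
Summed level of the 43 members (y axis, CPM) in each library, as 1 point per library, at P2, in all P7 cells and in the P7 granule lineage, with a bar at each group mean. Insm1 and Tead1/2 controls and mutants are side by side. The P7 all-cell mutants lie between 2466 and 3170.4 CPM and the controls between 4655 and 5099.

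The fall was larger in Tead1/2 than in Insm1 mutants for 5 members when the Insm1 effect minus the Tead1/2 effect was tested, in a comparison in which 3.57% of genes were called, 1.45% higher and 2.12% lower. These were Mcm5 (difference 0.75, SE 0.11, edgeR adjusted p = 0.00978), Cdk1 (0.56, SE 0.10, adjusted p = 0.0178), Mcm7 (0.50, SE 0.09, adjusted p = 0.0213), Nuf2 of the NDC80 complex (0.48, SE 0.10, adjusted p = 0.0258) and Brca1 (0.40, SE 0.09, adjusted p = 0.0401). All 43 differences were positive, with a median of 0.33. In each of the 5 called members the Tead1/2 controls stood above the Insm1 controls. Mean levels of Mcm5 for Insm1 and Tead1/2 were 40.9 and 63.5 CPM in controls and 30.5 and 28.9 in mutants. Those of Cdk1 were 51.2 and 66.4 CPM in controls and 42.9 and 38.6 in mutants. How far the control levels enter these differences was not tested. Nuf2 stood at 48.2 and 48.1 CPM in Insm1 controls against 33.5, 33.7 and 30.4 in the mutants, and at 57.7 and 56.6 against 28.8, 26.5 and 29.96 for Tead1/2. DESeq2 called 19 members where it called 8.7% of genes, 4.58% higher and 4.12% lower. These calls rest on single libraries: 0 of the 5 passed in every fit that left out 1 of the 10 libraries. The number of members called was 3 and 2 without Insm1 mutant 1 and mutant 2, and 9, 3 and 11 without Tead1/2 mutant 1, mutant 2 and mutant 3. Fits without a control leave 1 library in a group, and their counts are left out here. The count without Insm1 mutant 3 and the share of all genes called in these fits are not given. These counts are therefore not read as a result about the members. The number called was 2 when cells past the own doublet threshold of Scrublet were removed, where 2.73% of genes were called.

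Within the clusters named as granule lineage, the estimates were closer to 0 and fewer members passed. The lineage joined clusters of granule progenitor-like, granule neuron-like and undivided granule cells, which were built without the members or other cell cycle genes. It left out muscle-like cells and unnamed clusters with granule progenitor markers, so it need not hold all cells in which Atoh1Cre acted. Mutant and control cells of the lineage lay largely in different clusters. Clusters 9 and 11 held 32.8% and 30.6% of it in Insm1 mutants against 0.43% and 0.16% in controls, and cluster 7 held 3.48% against 37.8%. For Tead1/2, clusters 23 and 28 held 21.5% and 37.7% in mutants against 0% and 0.012% in controls, and cluster 7 held 3.67% against 49.7%. The part of this in the changes was not tested. In Insm1 mutants 21 of 43 members fell and 0 rose, where 22.6% of 16972 genes were called and 9.14% lower, with a median of -0.24 against 0.01 over all genes. In Tead1/2 mutants 33 fell and 0 rose, where 26.7% of genes were called and 11.7% lower, with a median of -0.38 against -0.01. By role, 0 of 6 MCM genes passed in Insm1 mutants against 3 of 6 in Tead1/2 mutants, while all 3 repair and cohesion genes, 3 and 5 of 5 kinetochore genes, and 6 and 8 of 9 kinesin and spindle genes did. Without Insm1 control 2 the Insm1 count was 2 and without Insm1 mutant 3 it was 11, and Brca1 and Kif23 alone passed in each of the 5 such fits. Without Tead1/2 control 1 the Tead1/2 count was 8, and these 8 (Aurkb, Brca1, Kif14, Kif23, Mcm5, Mcm7, Nuf2 and Pcna) passed in each such fit. The counts were 12 in Insm1 mutants with the stricter doublet removal, and 13 and 15 when cell cycle genes were kept in the clustering. An unnamed cluster led by Otx2 carried 9 granule progenitor and 5 granule neuron markers. Counting it as granule lineage gave 13 members in Tead1/2 mutants. The share of all genes called under those settings is not given, so these counts cannot be set against it.

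Pcna fell in the granule lineage of both mutants, at 42.7 and 53 CPM in Insm1 controls against 33.4, 37.7 and 34.6 in the mutants, and at 55.8 and 50.9 against 27.4, 33.6 and 36.3 for Tead1/2, with log2 changes of -0.42 (SE 0.12, edgeR adjusted p = 0.0214) and -0.68 (SE 0.12, adjusted p = 9.09e-04). Brca1 also fell in both, at 101 and 106 CPM in Insm1 controls against 73.97, 76.4 and 81.1 in the mutants, and at 139 and 127 against 93.3, 80.5 and 85.9 for Tead1/2 (-0.40, edgeR adjusted p = 0.00199, and -0.58, adjusted p = 1.02e-04). Mcm5 stood at 45.1 and 40.5 CPM in Insm1 controls against 40.1, 47.4 and 43.5 in the mutants, and at 70.3 and 72.4 against 43.2, 45.7 and 49.5 for Tead1/2. It fell in Tead1/2 mutants (log2 change -0.59, SE 0.08, edgeR adjusted p = 1.77e-04), and its Insm1 estimate was 0.05 with overlapping libraries (adjusted p = 0.752). The Tead1/2 controls of Mcm5 stood above its Insm1 controls, while the mutants of both alleles overlapped. The difference between the alleles passed for Mcm5 alone among the members (log2 change 0.64, SE 0.12, edgeR adjusted p = 0.0205), where 1.43% of genes were called. That call was lost without Insm1 control 2, Insm1 mutant 2, either Tead1/2 control or Tead1/2 mutant 2, and with the stricter doublet removal. Mcm2 did not pass in either allele, at 34.1 and 33.7 CPM in Insm1 controls against 29.6, 36.1 and 32.6 in the mutants, and at 43.03 and 42.7 against 25.1, 37.2 and 42.2 for Tead1/2. Rrm2, with overlap in both alleles, stood at 39.3 and 43.5 CPM in Insm1 controls against 33.4, 41.1 and 37.05 in the mutants, and at 49.6 and 50.2 against 36.2, 43.1 and 52.8 for Tead1/2. Tyms stood at 40.7 and 44.7 CPM in Insm1 controls against 35.4, 37.7 and 37.3 in the mutants, and at 50.9 and 45.3 against 40.4, 32.2 and 39.6 for Tead1/2, and fell in Tead1/2 mutants (log2 change -0.33, SE 0.10, edgeR adjusted p = 0.0287).

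Cdk1 and cyclin A2 had estimates of opposite sign in Insm1 mutants, and the difference between these genes was not tested. Cdk1 stood at 53.9 and 55.4 CPM in Insm1 controls against 60.2, 60.9 and 57.9 in the mutants, and at 78.1 and 79.9 against 72.4, 58.5 and 65.8 for Tead1/2, so that the Insm1 mutants were above their controls without passing (log2 change 0.15, SE 0.08, edgeR adjusted p = 0.234) and the Tead1/2 mutants fell (log2 change -0.24, SE 0.08, edgeR adjusted p = 0.0459). Ccna2 stood at 60.2 and 70.5 CPM in Insm1 controls against 46.3, 48.2 and 47.5 in the mutants, and at 67.2 and 62.1 against 37.99, 43.4 and 53.2 for Tead1/2 and fell in both (-0.45, edgeR adjusted p = 0.0143, and -0.49, adjusted p = 0.00732). Ccnb1 stood at 32.6 and 30.7 CPM in Insm1 controls against 32.7, 30.2 and 27.7 in the mutants, and at 42.5 and 42.1 against 30.8, 27.7 and 35.5 for Tead1/2 and passed in Tead1/2 mutants (log2 change -0.40, SE 0.10, edgeR adjusted p = 0.0109). Among the kinases, Plk1 did not pass in either allele, at 19.6 and 20.97 CPM in Insm1 controls against 17.2, 19.2 and 17.4 in the mutants, and at 22.6 and 20.9 against 14.8, 19.5 and 23.3 for Tead1/2. Aurkb stood at 27.7 and 31.6 CPM in Insm1 controls against 24.9, 25.1 and 26.2 in the mutants, and at 42 and 40.2 against 26.7, 24.3 and 31.2 for Tead1/2 and fell in Tead1/2 mutants (log2 change -0.55, SE 0.10, edgeR adjusted p = 0.00162). Aurka, the highest Tead1/2 estimate (0.01, edgeR adjusted p = 0.962), stood at 22.3 and 22.8 CPM in Insm1 controls against 19.7, 20.5 and 17.8 in the mutants, and at 24.8 and 22.3 against 22.3, 20.3 and 27.03 for Tead1/2. Aurora A and Polo kinase thus overlapped between groups for Tead1/2 where Aurora B did not. Cdc20 stood at 18.8 and 20.7 CPM in Insm1 controls against 16.3, 21.3 and 19.2 in the mutants, and at 18.3 and 19.2 against 11.8, 15.3 and 17.9 for Tead1/2 and passed in neither.

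Ndc80 stood at 57.02 and 60.7 CPM in Insm1 controls against 44.3, 48.3 and 44.2 in the mutants, and at 78.3 and 69.9 against 60.3, 52.5 and 54.4 for Tead1/2, and fell in both (-0.35, edgeR adjusted p = 0.00726, and -0.38, adjusted p = 0.00349). Knl1, the scaffold that recruits checkpoint proteins to kinetochores, fell in both, at 192 and 228 CPM in Insm1 controls against 154, 151 and 161 in the mutants, and at 241 and 222 against 185, 152 and 188 for Tead1/2. Kif11 stood at 159 and 181 CPM in Insm1 controls against 138, 139.8 and 139 in the mutants, and at 273 and 246 against 203, 179 and 201 for Tead1/2 and fell in both. These 3 genes showed no overlap between mutants and controls. Kif20a, a kinesin of cytokinesis, overlapped in both alleles at 22.2 and 22.3 CPM in Insm1 controls against 20.3, 23.6 and 23.3 in the mutants, and at 28.8 and 28.7 against 25.1, 25.3 and 28.9 for Tead1/2 (0.02 and -0.09). Anln stood at 97.5 and 105 CPM in Insm1 controls against 85.98, 77.5 and 90.4 in the mutants, and at 123 and 111 against 110.3, 88.1 and 94.05 for Tead1/2 and passed in neither. Top2a stood at 445 and 503 CPM in Insm1 controls against 377, 385 and 360.4 in the mutants, and at 551 and 525 against 395, 372 and 459 for Tead1/2, and fell in both (-0.32 and -0.36). Mki67 stood at 832 and 951 CPM in Insm1 controls against 688, 778 and 706 in the mutants, and at 1044 and 975 against 799, 752 and 897 for Tead1/2, and fell in both (-0.28 and -0.27).

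When the progenitor-like clusters were taken alone, few members differed. In Insm1 mutants 2 of 43 rose and 0 fell, where 21.4% of 14456 genes were called and 11.2% higher, and the median change was -0.01. In Tead1/2 mutants 1 fell, where 23.5% were called and 11.1% lower, and the median was -0.06. Kif20a rose in Insm1 mutants from 28.6 and 29.3 CPM to 33.3, 36.98 and 39.8 (log2 change 0.38, SE 0.10, edgeR adjusted p = 0.0127). Cdk1 rose from 71.2 and 73.2 CPM to 88.7, 84.7 and 80.4 (log2 change 0.28, SE 0.09, edgeR adjusted p = 0.0481). Pcna fell in Tead1/2 mutants from 72.5 and 66.6 CPM to 44.3, 51.9 and 58.2 (log2 change -0.39, SE 0.11, edgeR adjusted p = 0.0206). All 6 MCM estimates were above 0 in Insm1 mutants (median 0.18) and 0 passed. With each library left out in turn, Kif20a did not pass without Insm1 control 1 or Insm1 mutant 3, Cdk1 passed in 0 of 5 fits and Pcna in 1 of 5. DESeq2 called Kif20a higher and Ttk lower in Insm1 mutants, and Pcna lower in Tead1/2 mutants, with the share of all genes it called not given. The progenitor-like cells of mutants and controls fell mostly in different clusters: cluster 28 held 13.9% of the granule lineage of Insm1 mutants and 37.7% of that of Tead1/2 mutants and almost none of the controls, whose progenitor-like cells lay in clusters 4 and 7. Cluster 4 was named on 9 progenitor against 8 granule neuron markers. It had a median of 17170 UMIs, and 97.0% of its cells came from controls. Its part in the control levels and in the cycling shares below was not tested. The comparison within progenitor-like clusters was added after the data had been seen.

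The share of cycling cells was measured separately, as cells with UMIs of at least 3 different members after every cell was thinned to 2000 UMIs. In the granule lineage it was 50.7% and 54.0% in controls and 35.9%, 39.7% and 42.9% in mutants for Insm1, and 59.3% and 56.8% against 39.3%, 39.3% and 46.3% for Tead1/2. The differences were -12.8 and -16.4 percentage points. The 3 mutants of each allele were all below both controls, with a two-sided exact permutation p = 0.2, the smallest that 2 against 3 libraries can give. Among progenitor-like cells alone the shares were 81.1% and 83.1% against 69.8%, 63.3% and 67.3% for Insm1, and 85.9% and 85.8% against 69.1%, 68.1% and 76.6% for Tead1/2. Granule neuron-like cells, which have left the cell cycle, gave 10.2% to 14.5% by library. Without thinning the lineage means were 64.4% and 51.5% for Insm1 and 69.0% and 52.2% for Tead1/2. The differences were smaller when cells past the own doublet threshold of Scrublet were removed. Control and mutant means were then 42.3% and 35.5% for Insm1 (-6.82 points) and 49.9% and 39.3% for Tead1/2 (-10.7 points). Counted from UMIs of the replication members alone, the lineage means were 6.77% and 7.06% for Insm1, a difference of 0.299 points (exact permutation p = 0.8), and 9.83% and 7.05% for Tead1/2. Thinning left out 464 of 31913 granule-lineage cells with fewer UMIs. A cell counted this way holds member RNA, which free RNA and doublets can also supply.

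Other cell cycle genes at P7 included groups that fell with the members and a few that rose. In all cells, 48 of 49 other replication genes fell in Insm1 mutants and 49 in Tead1/2 mutants (medians -0.50 and -0.84). Of 84 other mitosis genes 79 and 81 fell and 1 rose in each (medians -0.57 and -0.86), and all 23 S-phase repair genes fell in each. In the granule lineage the falls numbered 11 and 28 of 49, 26 and 56 of 84, and 8 and 15 of 23. The shares of all genes called lower in these fits are given above, beside the member counts. The list counts were not tested against those shares. The lowest replication genes called there were Gins3 (-0.51) and Gins2 (-0.45), subunits of the GINS helicase complex, in Insm1 mutants, and Rpa2 (-0.70), of the single-strand binding protein, and Gins1 (-0.57) in Tead1/2 mutants. The lowest mitosis genes were the histone kinase Haspin (-0.52) and the cohesin protector Sgo1 (-0.48) in Insm1 mutants, and the centrosome kinase Nek2 (-0.57) and Sgo1 (-0.54) in Tead1/2 mutants. The lowest repair genes were Exo1 (-0.42) and Rmi2 (-0.39) in Insm1 and Ung (-0.55) and Brip1 (-0.47) in Tead1/2 mutants. In progenitor-like cells alone 0 repair genes passed, 1 replication gene rose in Insm1 mutants, the histone chaperone Asf1b (0.51), and in Tead1/2 mutants 4 fell and Asf1b rose (0.59). These counts lie below the shares of all genes called in those fits, given above, and are not read as a result about the lists.

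The G1 genes and CDK inhibitors went both ways in the granule lineage. Of the 13 G1 genes 2 fell and 3 rose in Insm1 mutants, and 4 fell and 3 rose in Tead1/2 mutants. The shares of all genes called in these fits are given above with the granule-lineage members. The counts of these short lists were not tested against them. Ccnd2, cyclin D2 of granule progenitors, fell (-0.90 in Insm1 and -0.79 in Tead1/2 mutants), as did Wee1, the kinase that restrains CDK1 (-0.29 and -0.40). Ccnd3, cyclin D3, rose (1.61 and 1.35), as did Ccnd1 (1.17 and 1.01). The CDK inhibitors Cdkn1a, p21, and Cdkn1c rose, Cdkn1a by 1.68 and 1.23 and Cdkn1c by 2.79 and 2.83, while Cdkn2c (-0.64) and Cdkn1b (-0.30) fell in Tead1/2 mutants. Among the 19 E2F and DREAM regulators 5 and 9 fell and E2f2 rose in each (0.60 and 0.36), with the repressor E2f8 lowest (-0.46 and -0.52). In progenitor-like cells alone Cdkn1c rose by 3.16 and 3.10 and Ccnd3 by 1.85 and 1.85, and Ccnd2 fell (-0.75 and -0.59). In muscle-like cells of the mutants, compared below with the granule lineage, Cdkn1a was higher by 4.46, Cdkn1c by 3.82 and Ccnd3 by 2.27. Beside the granule-lineage values, the 40 skeletal muscle markers summed in that lineage to 89.1 to 89.9 CPM in Insm1 controls and 250.4 to 293 in mutants, and to 90.1 to 116 and 399 to 685 for Tead1/2. Their part in these rises was not tested.

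In the mutants, the members were compared between muscle-like cells, which are named for skeletal muscle markers, and the granule lineage of the same 6 libraries. All 43 were lower in muscle-like cells, with a median of -0.98, where 68.8% of 19470 genes were called and 32.2% lower. Against progenitor-like cells alone the median was -1.52, with 43 lower where 28% of genes were called lower. The size changed with the cells removed as doublets, cells read together under 1 barcode. When cells marked by the own threshold of Scrublet were removed, the median was -3.93, where 72.4% of genes were called and 35.4% lower. That threshold marks 42.9% of cells, mostly deep ones, so the values reported as main remove the highest 4% of scores per library.

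**Figure D4:**
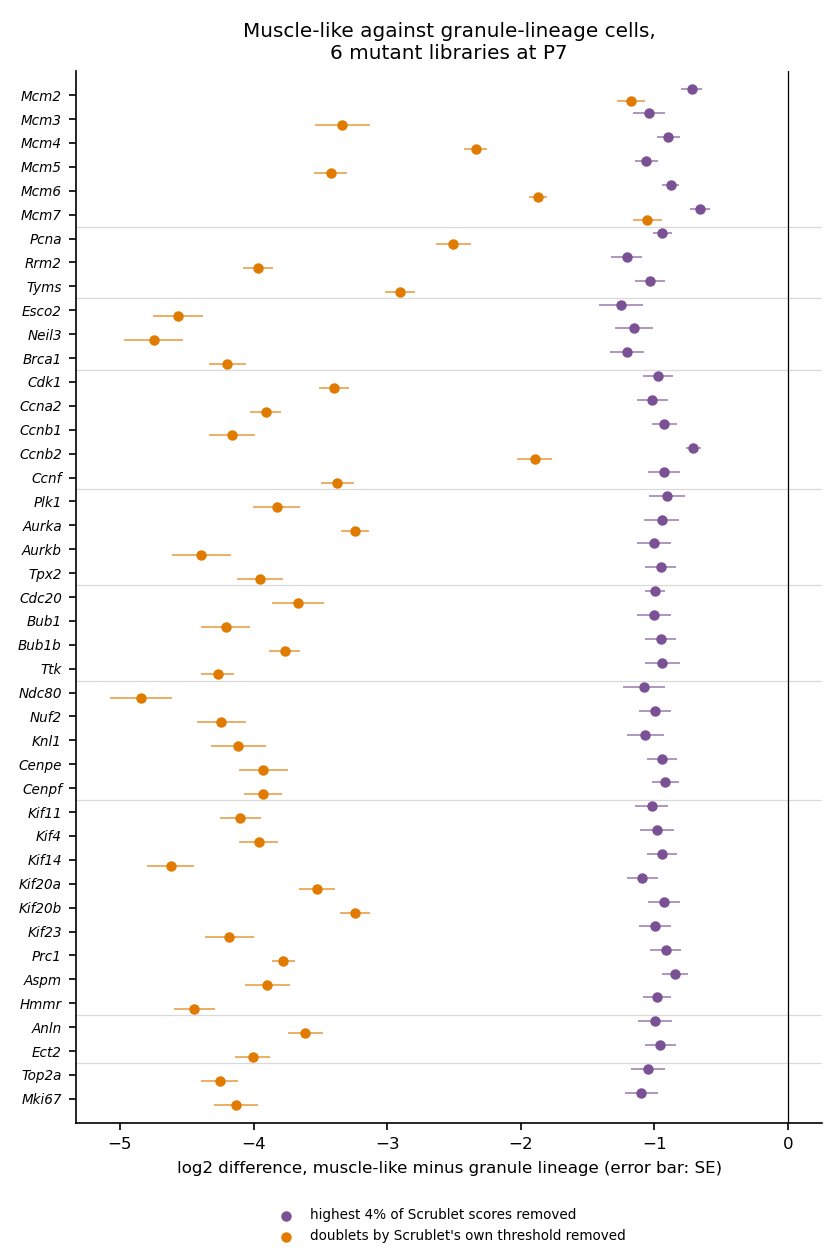
Log2 change (x axis, muscle-like against granule-lineage cells of the 6 mutant libraries, bars of 1 standard error) of the 43 members by role on the y axis, with the highest 4% of doublet scores removed and with all cells past the threshold of Scrublet removed. All points lie left of 0. The second set lies farther left, and Mcm7 and Mcm2 lie nearest 0 in it, at -1.05 and -1.17.

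The helicase genes Mcm7 and Mcm2 and the cyclin gene Ccnb2 had the smallest falls in muscle-like cells. Mcm7 had the smallest difference, at 43.9, 47.8, 46.6, 33.5, 44.1 and 36.1 CPM in muscle-like cells against 60.6, 66.4, 63.2, 60.7, 68.97 and 66.5 in granule-lineage cells for Insm1 mutants 1 to 3 and Tead1/2 mutants 1 to 3 in that order (log2 change -0.66, SE 0.07, edgeR adjusted p = 6.46e-05). With the stricter doublet removal Mcm7 stood at 32.1, 31.7, 43.1, 25.8, 29.8 and 24.05 CPM in muscle-like cells against 61.5, 64.4, 59.3, 60.6, 71.5 and 62.5 in granule-lineage cells (log2 change -1.05, SE 0.11, edgeR adjusted p = 1.57e-05). Mcm2 stood at 22.4, 23.9, 22.4, 13.3, 22.9 and 22.8 CPM in muscle-like cells against 30.5, 36.3, 32.4, 25.3, 37.3 and 43.2 in granule-lineage cells, and at 15.2, 17.02, 14.7, 10.00, 16.7 and 13.8 CPM in muscle-like cells against 26.96, 35.5, 29.1, 26.4, 37.7 and 40.2 in granule-lineage cells with the stricter removal (-0.72 and -1.17). Both genes, like all 43 members, had levels above 0 in the muscle-like cells of all 6 libraries under either setting. Their muscle-like values lay below the granule-lineage ones. Under the stricter removal some members were near the floor, such as Mcm3 and Plk1 at 1.01 CPM in muscle-like cells of Insm1 mutant 3. Whether such levels come from the cells themselves, free RNA or doublets was not tested. Mcm5 stood at 23.2, 24.7, 26.4, 17.9, 21.2 and 20.96 CPM in muscle-like cells against 41.2, 47.7, 43.2, 43.6, 45.8 and 50.7 in granule-lineage cells, and its change was -1.06, then -3.42 with the stricter removal. Pcna stood at 20.5, 19.9, 21.8, 12.6, 17.3 and 18.3 CPM in muscle-like cells (-0.94, and -2.50 with the stricter removal). Rrm2 stood at 19.2, 21.7, 18.97, 11.6, 19.8 and 18.5 CPM in muscle-like cells (-1.21, and -3.97 with the stricter removal). These S-phase genes were below the granule lineage in each library. Tyms stood at 21.3, 22.8, 21.4, 14.3, 17.5 and 16.4 CPM in muscle-like cells (-1.03, and -2.90 with the stricter removal). Brca1 stood at 41.2, 40.03, 46.4, 28.1, 35.4 and 31.5 CPM in muscle-like cells (-1.21, and -4.19 with the stricter removal). Esco2, the lowest of all members with the main removal, stood at 31.1, 25.3, 25.9, 14.7, 20.2 and 19.5 CPM in muscle-like cells (-1.25, and -4.57 with the stricter removal). Brca1 and Esco2 were likewise lower in each library.

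The mitotic members, like the replication and repair members, had larger falls under the stricter removal than under the main one. Top2a stood at 240.3, 222, 235, 137, 181 and 177 CPM in muscle-like cells against 388, 387, 357, 399, 374 and 469 in granule-lineage cells, and at 25.03, 15.3, 18.2, 13, 18.7 and 25.8 CPM in muscle-like cells against 340.3, 357, 343, 368, 352 and 434 in granule-lineage cells with the stricter removal (log2 change -4.25, SE 0.14, edgeR adjusted p = 5.85e-09). Mki67 stood at 424, 440.3, 427, 269.8, 346 and 352 CPM in muscle-like cells against 707, 783, 701, 806, 755 and 918 in granule-lineage cells, and at 61.5, 33.8, 43.6, 29.6, 40.2 and 51.3 CPM in muscle-like cells against 655, 735, 698, 789.6, 749 and 865 in granule-lineage cells with the stricter removal (-4.13). The muscle-like values were below every granule-lineage value in both settings, as for all 43 members, where 17.6% and then 27.2% of all genes were all below and 26.5% and 21.5% all above. Ndc80 had the lowest estimate of all members under the stricter removal (log2 change -4.84, SE 0.23, edgeR adjusted p = 5.50e-08). It stood at 0.439, 1.91, 4.56, 0.975, 1.95 and 1.66 CPM in muscle-like cells against 38.8, 44.8, 40.98, 53.98, 47.6 and 48.3 in granule-lineage cells. The muscle-like sums under that removal held 4332186, 4571514 and 1760959 UMIs in Insm1 mutants 1 to 3. These Ndc80 levels thus rest on few UMIs, and its rank below the other members is not firm. Cdk1 stood at 37.7, 37.4, 37.7, 26.99, 29.9 and 29.5 CPM in muscle-like cells (-0.97, and -3.40 with the stricter removal). Ccnb1 stood at 20.7, 17.5, 19.1, 13.7, 14.1 and 16.4 CPM in muscle-like cells (-0.93, and -4.16 with the stricter removal). Ccnb2 stood at 10.6, 11.4, 10.5, 6.59, 9.36 and 9.53 CPM in muscle-like cells (-0.71, and -1.90 with the stricter removal). The change of Ccnb2 was thus closer to 0 than that of Ccnb1 under both settings. Plk1 stood at 12.4, 12.5, 12.3, 5.65, 10.1 and 9.84 CPM in muscle-like cells (-0.91, and -3.83 with the stricter removal). Aurkb stood at 16.4, 16.4, 16, 9.29, 11.3 and 13.6 CPM in muscle-like cells (-1.01, and -4.39 with the stricter removal). Cdc20 stood at 9.87, 10.7, 11.2, 5.04, 8.05 and 8.53 CPM in muscle-like cells (-0.995, and -3.67 with the stricter removal). The kinases and Cdc20 were below the granule lineage in each library. Kif11 stood at 90.6, 85.7, 84.8, 71.1, 87.8 and 83.7 CPM in muscle-like cells (-1.02, and -4.10 with the stricter removal). Anln stood at 55.5, 49.8, 57.9, 38.4, 44.3 and 39.9 CPM in muscle-like cells (-0.99, and -3.61 with the stricter removal).

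The share of cycling cells was also lower in muscle-like cells. It was 31.6%, 31.2% and 38.0% in muscle-like cells of Insm1 mutants and 19.5%, 27.9% and 25.5% in those of Tead1/2 mutants, with a mean of 29.0% against 40.6% in the granule lineage (difference -11.6 points, two-sided exact paired permutation p = 0.03125, the smallest that 6 libraries allow). Muscle-like cells were lower in each of the 6 libraries. The differences were -4.30, -8.51 and -4.91 points in Insm1 mutants 1 to 3 and -19.8, -11.4 and -20.8 in Tead1/2 mutants 1 to 3. Counted from the mitosis members alone, they were -0.912, -5.33 and -0.871 points, and -17.9, -8.21 and -16.2 points. The difference between the alleles in this was not tested. Purkinje-like cells, neurons that do not divide, gave 34.9% in the 344 cells of the mutants, at a median of 54128 UMIs per cell against 14827.5 in muscle-like and 6324 in granule-lineage cells. Of these Purkinje-like cells 100% of the 120 that counted as cycling and 91.5% of the 224 others were past the threshold of Scrublet, and before thinning the class held 53, 130 and 117 cells in Insm1 mutants but 11, 23 and 23 in Tead1/2 mutants. The muscle-like mean lay below the Purkinje-like share and Insm1 mutant 3 above it. That share pools cells that are deeper, mostly past the threshold of Scrublet and mostly from Insm1 mutants. It therefore does not measure the background of muscle-like cells. Whether the muscle-like share exceeds background was not tested. With the stricter doublet removal the muscle-like shares were 4.86%, 2.31%, 2.31%, 1.79%, 2.94% and 2.84%, against a granule-lineage mean of 37.4%, a difference of -34.6 points. The Purkinje-like cells left there numbered 20 and gave no background. Without thinning, the muscle-like share was higher by 3.48 points (exact paired permutation p = 0.15625).

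**Figure D5:**
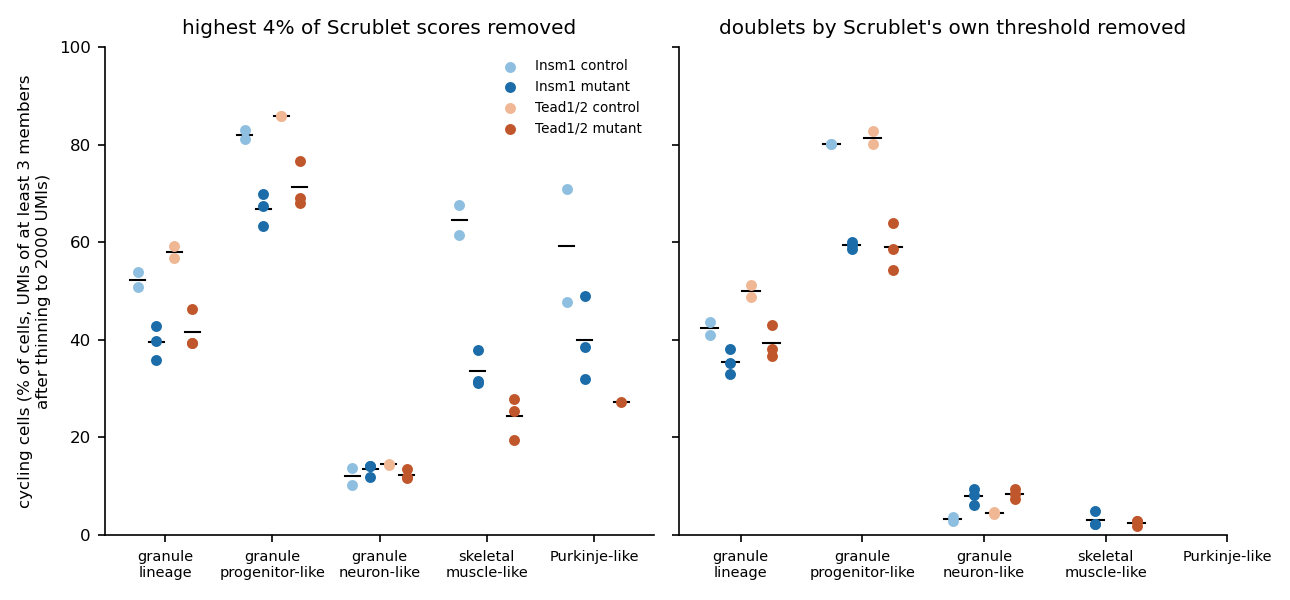
Share of cells with UMIs of at least 3 members after thinning to 2000 UMIs (y axis, percent) by cell class on the x axis, 1 point per library, with the highest 4% of doublet scores removed and with the threshold of Scrublet. Classes with under 20 cells of that depth in a library are not drawn for it. Muscle-like points of the mutant libraries lie between 19.5% and 38.0% with the first setting and between 1.79% and 4.86% with the second. These ranges do not cover control libraries, which are drawn where they hold enough cells.

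The muscle-like cells that counted as cycling differed from the others in depth. The 2876 with at least 3 members had a median of 39782.5 UMIs, and 92.9% of them were past the threshold of Scrublet, against 10250.0 UMIs and 35.1% in the 7525 others. They held 2.79 granule progenitor marker UMIs per 2000 against 1.10, and 48.3 muscle marker UMIs against 82.9. Cycling progenitor-like cells of the same libraries held 6.11 progenitor marker UMIs. By cluster, the cycling share was 2.8%, 17.8%, 29.6% and 54.0% in the 4 muscle-like clusters, and in the last of these 96.6% of cells were past the threshold of Scrublet. How far doublets account for the member RNA in muscle-like cells was not tested beyond these values.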

How the data were processed

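Bulk tables hold expected counts per gene that the authors deposited, and single-cell matrices hold UMI counts per gene and cell from combinatorial barcoding, per the labels. RSEM 1.3.3 and STAR 2.7.9a are named in the submitters' processing notes, without their roles. Expected counts were rounded and 92 spike-in entries were removed. P7 cells needed 1000 UMIs, 500 genes and under 15% mitochondrial UMIs, and the highest 4% of Scrublet scores per library were removed (scanpy 1.11.5). This left 77307 cells, 4667 to 10326 per library, with median UMIs of 6695 to 9877.5 by library. Cells were clustered without cell cycle genes and named from marker lists. Counts were summed per library and class. edgeR 4.0.16 (quasi-likelihood, TMM, filterByExpr) gave the changes at both ages, with Benjamini-Hochberg adjustment over all genes and 0.05 as the threshold. The muscle-like comparison kept the library as a block. Alternatives were DESeq2 1.42.0, other filters on genes and doublets, other clusterings, and each library left out, and the tests were checked on simulated data. All 43 members were tested in every comparison. Values by library are given for 16 chosen by role and for members with the highest or lowest estimates, but not in every comparison. In progenitor-like cells they are given for the members called by edgeR alone. Cenpe and Ttk, extremes of the difference between alleles at P2, are given by estimate alone. Many muscle-like values stand without their granule-lineage values. The remaining members appear in counts and figures. Members and lists were chosen with earlier results of these data known. Replicates are single cerebella, and their number limits precision.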

Additional observations from a re-analysis of the deposited data

Results flagged for a closer look

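At P2, the highest or lowest library of a group stood apart from the others, by the ratio of its gap to the group's range, in 4 of 132 sets of 4 libraries examined (the 43 members and their sum in 3 groups), where chance gives about 1 in 20. Rrm2 was low in Insm1 control 4 (72.2 CPM), Plk1 was low in Insm1 control 2 (24.2 CPM) and Cdc20 was high in Insm1 control 3 (58.3 CPM). Mcm5 was high in the library labelled Tead1/2 mutant 4 (103 CPM).

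The alleles differed by the test of the Insm1 effect minus the Tead1/2 effect in P7 cells. The log2 differences, positive where the fall was larger in Tead1/2 mutants, were 0.75 for Mcm5, 0.56 for Cdk1, 0.50 for Mcm7, 0.48 for Nuf2 and 0.40 for Brca1 over all cells, with edgeR adjusted p from 0.00978 to 0.0401. In each of these genes the Tead1/2 controls stood above the Insm1 controls over all cells. Mcm5 differed by 0.64 in the granule lineage (edgeR adjusted p = 0.0205). Each of these calls was lost when 1 or more single libraries were left out.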

How the results depend on the processing

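Of the member results, the falls in all P7 cells and in muscle-like cells against the granule lineage kept their direction for each called member under the alternatives tried. At P2, DESeq2 called 7 members in Tead1/2 mutants and testing without a filter on low counts called 8, against 0. For the difference between alleles in all P7 cells (5 members), DESeq2 called 19 and the own doublet threshold of Scrublet gave 2. In the granule lineage that threshold gave 12 members in Insm1 mutants and 0 for the difference between alleles. Clusters that kept the cell cycle genes gave 13 in Insm1 and 15 in Tead1/2 mutants, and adding a cluster led by Otx2 gave 13 in Tead1/2 mutants. The share of all genes called is not given for these granule-lineage counts or for the P2 count without a filter. It is also not given here for the counts below that leave a library out. Those counts are therefore not read as a result about the members. The cycling difference reversed to 0.299 points in the Insm1 granule lineage when replication members alone were counted, and to 3.48 points in muscle-like cells without thinning. With each library left out in turn, the members called numbered 0 to 2 for Tead1/2 at P2, and 0 to 11 and 0 to 2 for the difference between alleles in all cells and in the granule lineage at P7. They numbered 2 to 19 and 8 to 35 in the granule lineage, and 0 to 1 and 0 to 3 in progenitor-like cells, of Insm1 and Tead1/2 mutants. The muscle-like cycling difference ran from -13.1 to -9.79 points, with p = 0.0625, the smallest that 5 libraries allow, by the exact paired test. Estimates near 0 changed sign. Cdk1 in the Insm1 comparison at P2 was -0.015 without a filter. In the Insm1 granule lineage, the threshold of Scrublet gave 0.010 for Mcm2, -0.00079 for Kif20a, -0.019 for Mcm5, 0.11 for Cdc20 and 0.042 for Ccnb1. Mcm2 was 0.0072 with cell cycle genes kept and 0.0069 with the Otx2-led cluster. Aurka in the Tead1/2 granule lineage was -0.024 without a filter and -0.051 with no doublets removed. With each library left out, further signs changed. In the Insm1 comparison at P2 the log2 change ran for Ccnb1 from -0.12 to 0.058, Cdk1 from -0.080 to 0.075, Pcna from -0.038 to 0.12 and Prc1 from -0.083 to 0.040. For the Tead1/2 comparison at P2 it ran for Plk1 from -0.037 to 0.16 and Rrm2 from -0.068 to 0.16. As to the difference between alleles at P2, it ran for Ccnf from -0.14 to 0.039, Mcm2 from -0.15 to 0.015 and Mcm5 from -0.10 to 0.0042. Within the Insm1 granule lineage it ran for Ccnb1 from -0.11 to 0.00080, Cdc20 from -0.14 to 0.051, Kif20a from -0.012 to 0.089, Mcm2 from -0.10 to 0.038 and Mcm5 from -0.022 to 0.12. In the Tead1/2 granule lineage it ran for Aurka from -0.11 to 0.12 and Plk1 from -0.29 to 0.0066. Among Insm1 progenitor-like cells it ran for Anln from -0.13 to 0.039, Aurkb from -0.094 to 0.095, Kif11 from -0.19 to 0.0080, Mki67 from -0.18 to 0.018, Pcna from -0.24 to 0.068, Plk1 from -0.072 to 0.048 and Top2a from -0.17 to 0.014. For Tead1/2 progenitor-like cells it ran for Anln from -0.044 to 0.12, Cdk1 from -0.051 to 0.097, Kif11 from -0.12 to 0.00078, Mcm2 from -0.057 to 0.21, Mki67 from -0.0091 to 0.077, Top2a from -0.11 to 0.0024 and Tyms from -0.13 to 0.080. The cause of these changes was not tested. The labels give no litter or animal for a library number, which at P7 also follows the dissection, and same-numbered libraries correlated at -0.24 to 0.36 at P2 and -0.22 to 0.061 at P7. A replicate block on that number gave 23 and 35 members in the granule lineage of Insm1 and Tead1/2 mutants and 0 at P2, with Kif20a at -0.028 (Insm1) and Aurka at -0.032 (Tead1/2), and muscle-like cells without the block gave 43. The share of all genes called in these fits is not given, so these counts are not read as a result about the members. With 2 controls per allele at P7, leaving out a control leaves 1 library whose spread is taken from the other groups, and at this depth the sign of estimates near 0 was not detectable. The progenitor-like cells, the Otx2-led cluster and the P7 difference between alleles were chosen after seeing the data.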
